A study of Mus musculus with 30 samples.

Results

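The NRF2 targets and antioxidant enzymes described here are 31 genes, taken by symbol from a table of raw counts for 46603 mouse genes: NRF2 and its regulators, the enzymes of glutathione and thioredoxin chemistry, and the enzymes that remove peroxide and superoxide. All 31 were found, each on a single row. They were read in macrophages from subcutaneous tumours of 3LL-R, a line of the Lewis lung carcinoma, in wild-type C57BL/6 mice. The macrophages were sorted into cells with low surface MHC class II (MHC-IIlo) and high surface MHC class II (MHC-IIhi), and RNA was sequenced in bulk in 6 groups of 5 libraries. The groups were MHC-IIlo and MHC-IIhi cells kept 24 h with 20 mM sodium L-lactate (lactate), the same subsets kept 24 h without it (no-lactate), and both subsets as sorted (fresh). The series is about how macrophages within a tumour differ in metabolism, and its design sets the subsets against each other, lactate against no lactate, and cultured against fresh cells.

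Fresh libraries came from 30000 cells sorted straight into lysis buffer, and cultured libraries from 250000 cells lysed in the culture plate. The effect of culture cannot be told apart from that of cell number and lysis route. The labels call the 5 samples of a group biological replicates and do not say whether each was 1 mouse or a pool, so p-values measure the spread between these samples. Ages and sexes were not given. Fresh libraries carry the numbers 1 to 5, no-lactate MHC-IIhi libraries 3 to 7 and the other cultured libraries 1 and 3 to 6, and values of a group follow that order. In bulk RNA, fewer cells of a type and less RNA per cell cannot be told apart.

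NRF2, the product of Nfe2l2, is a transcription factor that KEAP1 holds in the cytoplasm and hands to the proteasome. Oxidants and electrophiles modify KEAP1, NRF2 then reaches the nucleus, pairs with small MAF proteins and binds the antioxidant response element, and its targets make and use glutathione, reduce thioredoxin and supply NADPH. The selective autophagy receptor p62, the product of Sqstm1, binds KEAP1 and is itself an NRF2 target. In macrophages this system is known for answering the oxidative burst, iron and haem, and reactive metabolites.

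The core of the antioxidant response element was searched as TGACNNNGC, on both strands, in windows reaching 250 bases before and 50 bases after the start of each gene (RefSeq, GRCm38.p6). Of the 31 members 27 had such a window, and 9 of these held the core (33.3%), against 3781 of 27025 genes (13.99%). Genes with several start sites have several windows: 9 of 36 member windows held it, against 12.4% of all 32851 windows. In Srxn1 and Me1 the core lay after the start. All 7 sites before it are shown, and the capitals mark the core as it reads on the gene's strand.
Prdx1: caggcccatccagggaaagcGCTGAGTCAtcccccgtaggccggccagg
Gclm: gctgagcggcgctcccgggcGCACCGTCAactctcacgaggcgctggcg
Txnrd1: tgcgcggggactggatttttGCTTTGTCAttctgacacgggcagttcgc
Mgst1: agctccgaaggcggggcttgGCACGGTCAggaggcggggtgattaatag
Sod1: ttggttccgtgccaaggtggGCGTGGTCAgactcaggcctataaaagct
Gsta3: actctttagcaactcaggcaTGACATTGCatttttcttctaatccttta
Nfe2l2: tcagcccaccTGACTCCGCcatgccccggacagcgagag

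The Prdx1 stretch lies at chr4:116685446-116685494 (+ strand), its core ending 125 bases before the start, and that of Gclm at chr3:122245403-122245451 (+ strand), 126 bases before. The Txnrd1 core lies 84 bases before the start, at chr10:82859094-82859142 (+ strand). The Mgst1 and Sod1 cores end 48 bases before their starts, at chr6:138140451-138140499 (+ strand) and chr16:90220686-90220734 (+ strand). The Gsta3 core ends 113 bases before, at chr1:21240444-21240492 (+ strand), and the Nfe2l2 core 232 bases before, at chr2:75704875-75704913 (- strand). Gsta3 and Nfe2l2 carry it on their own strand and the other 5 on the opposite one. The Prdx1 core reads TGACTCAGC and so also holds TGACTCA, the site of AP-1 factors. The Me1 core, which lies after the start, reads the same. A match is a description of the letters in the window and not evidence of binding.

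Each lactate MHC-IIlo library held 18752181 to 31481548 counts and each lactate MHC-IIhi library 16965012 to 30135127. Without lactate the totals were 24050876 to 29928350 for MHC-IIlo and 22030754 to 29152519 for MHC-IIhi libraries, and fresh they were 17838799 to 20999665 for MHC-IIlo and 16913250 to 21407666 for MHC-IIhi libraries. Levels are given as CPM, counts scaled to each library's total. The 9 macrophage markers listed summed to 6091 to 18009 CPM in cultured libraries and 22428 to 27343 CPM in fresh ones, and none of them was at 0 throughout a group. After culture without lactate 3 of 9 macrophage markers rose and 5 fell in MHC-IIlo cells, and 4 rose and 5 fell in MHC-IIhi cells. The 7 dendritic cell markers summed to 184 ± 82.9 CPM in no-lactate MHC-IIhi and 29.2 ± 10.01 CPM in fresh MHC-IIhi libraries, and to 1.41 ± 1.44 CPM in no-lactate MHC-IIlo and 3.35 ± 1.02 CPM in fresh MHC-IIlo libraries (SD, n = 5). All dendritic cell markers tested were lower in MHC-IIlo than MHC-IIhi cells, 5 of 5 fresh and 4 of 4 in either culture. The 8 neutrophil markers summed to 547 ± 72.0 CPM in fresh MHC-IIlo and 243 ± 44.4 CPM in fresh MHC-IIhi libraries, with Camp at 0 in both and 5 of 6 tested higher in MHC-IIlo cells. They summed to 887 ± 125 CPM in no-lactate MHC-IIlo libraries, with Mmp8 at 815 CPM, and to 828 ± 113 CPM in no-lactate MHC-IIhi libraries, with Mmp8 at 761 CPM. Of 6 tested against fresh cells, MHC-IIlo cells had 1 higher and 3 lower after culture, while MHC-IIhi cells had 2 higher and 3 lower. The 4 endothelial markers summed to 305 ± 29.4 CPM in no-lactate MHC-IIlo and 103 ± 8.60 CPM in fresh MHC-IIlo libraries, and to 420 ± 115 CPM in no-lactate MHC-IIhi and 107 ± 9.29 CPM in fresh MHC-IIhi libraries, and 3 were tested, of which MHC-IIlo cells had 1 higher and 2 lower, while MHC-IIhi cells had 2 higher and 1 lower. The 7 fibroblast markers summed to 50.3 ± 15.5 CPM in no-lactate MHC-IIlo and 93.9 ± 33.8 CPM in fresh MHC-IIlo libraries, with 1 higher and 5 lower, and to 60.1 ± 34.01 CPM in no-lactate MHC-IIhi and 42.3 ± 23.1 CPM in fresh MHC-IIhi libraries, with 1 higher. Between the fresh subsets 4 of 7 fibroblast, 2 of 3 endothelial and 6 of 9 macrophage markers were higher in MHC-IIlo cells, and both B cell markers and the 1 T and NK cell marker tested were lower. The 5 B cell markers summed to 1.73 ± 1.04 CPM in fresh MHC-IIlo and 13.8 ± 5.57 CPM in fresh MHC-IIhi libraries. The epithelial and tumour markers summed to 51.5 ± 9.35 CPM in no-lactate MHC-IIlo and 217 ± 81.2 CPM in fresh MHC-IIlo libraries, and to 53.2 ± 22.2 CPM in no-lactate MHC-IIhi and 541 ± 57.7 CPM in fresh MHC-IIhi libraries, with Krt18 at 0 in both no-lactate groups and Epcam and Krt18 at 0 in fresh MHC-IIlo cells. All 6 red cell markers tested were lower after culture in both subsets. The part of these markers in the results was not tested.

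One library stood apart. Lactate MHC-IIlo 5 had a normalisation factor of 1.28, against 0.934 to 1.03 in the other 4 lactate MHC-IIlo libraries, and the lowest macrophage marker sum, 6091 CPM. Calls that changed without it are given with and without it.

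Together the 31 genes took 10569 ± 1507 CPM in lactate MHC-IIlo, 11839 ± 1329 CPM in lactate MHC-IIhi, 8356 ± 754 CPM in no-lactate MHC-IIlo, 10673 ± 1437 CPM in no-lactate MHC-IIhi, 5020.2 ± 115 CPM in fresh MHC-IIlo and 5265 ± 232 CPM in fresh MHC-IIhi libraries (mean ± SD, n = 5, as for every such value below). No cultured library was as low as the highest fresh one. The composition also differed. Per kilobase of transcript, the highest level in fresh cells was that of Gpx1, which encodes the cytosolic selenoenzyme that reduces hydrogen peroxide with glutathione: 737 CPM per kilobase in MHC-IIlo and 859 in MHC-IIhi cells, followed by Txn1, Prdx5 and Prdx1. In all 4 cultured groups Prdx1, which encodes a thioredoxin-dependent cytosolic peroxidase, was highest, at 1059 and 1265 CPM per kilobase in lactate MHC-IIlo and MHC-IIhi cells and 817 and 999.9 in no-lactate MHC-IIlo and MHC-IIhi cells, with Gpx1 second. Prdx1 made up 30.02% ± 8.26 in lactate MHC-IIlo, 32.28% ± 2.79 in lactate MHC-IIhi, 29.70% ± 2.05 in no-lactate MHC-IIlo, 28.46% ± 4.01 in no-lactate MHC-IIhi, 12.92% ± 0.91 in fresh MHC-IIlo and 11.01% ± 0.56 in fresh MHC-IIhi cells as a share of the module's counts. In lactate MHC-IIlo 5 that share was 15.8%, against 29.8% to 35.6% in the other 4 lactate MHC-IIlo libraries, whose mean was 33.6% ± 2.62. The share of Gpx1 was 7.07% ± 1.84 in lactate MHC-IIlo, 6.50% ± 1.31 in lactate MHC-IIhi, 9.28% ± 1.13 in no-lactate MHC-IIlo, 7.57% ± 0.74 in no-lactate MHC-IIhi, 21.14% ± 1.75 in fresh MHC-IIlo and 23.49% ± 0.49 in fresh MHC-IIhi cells. At the low end were Nqo1, Me1 and Gsta3 in fresh cells and Ephx1 and Gsta3 in cultured cells, all below 4 CPM per kilobase.

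**Figure D1:**
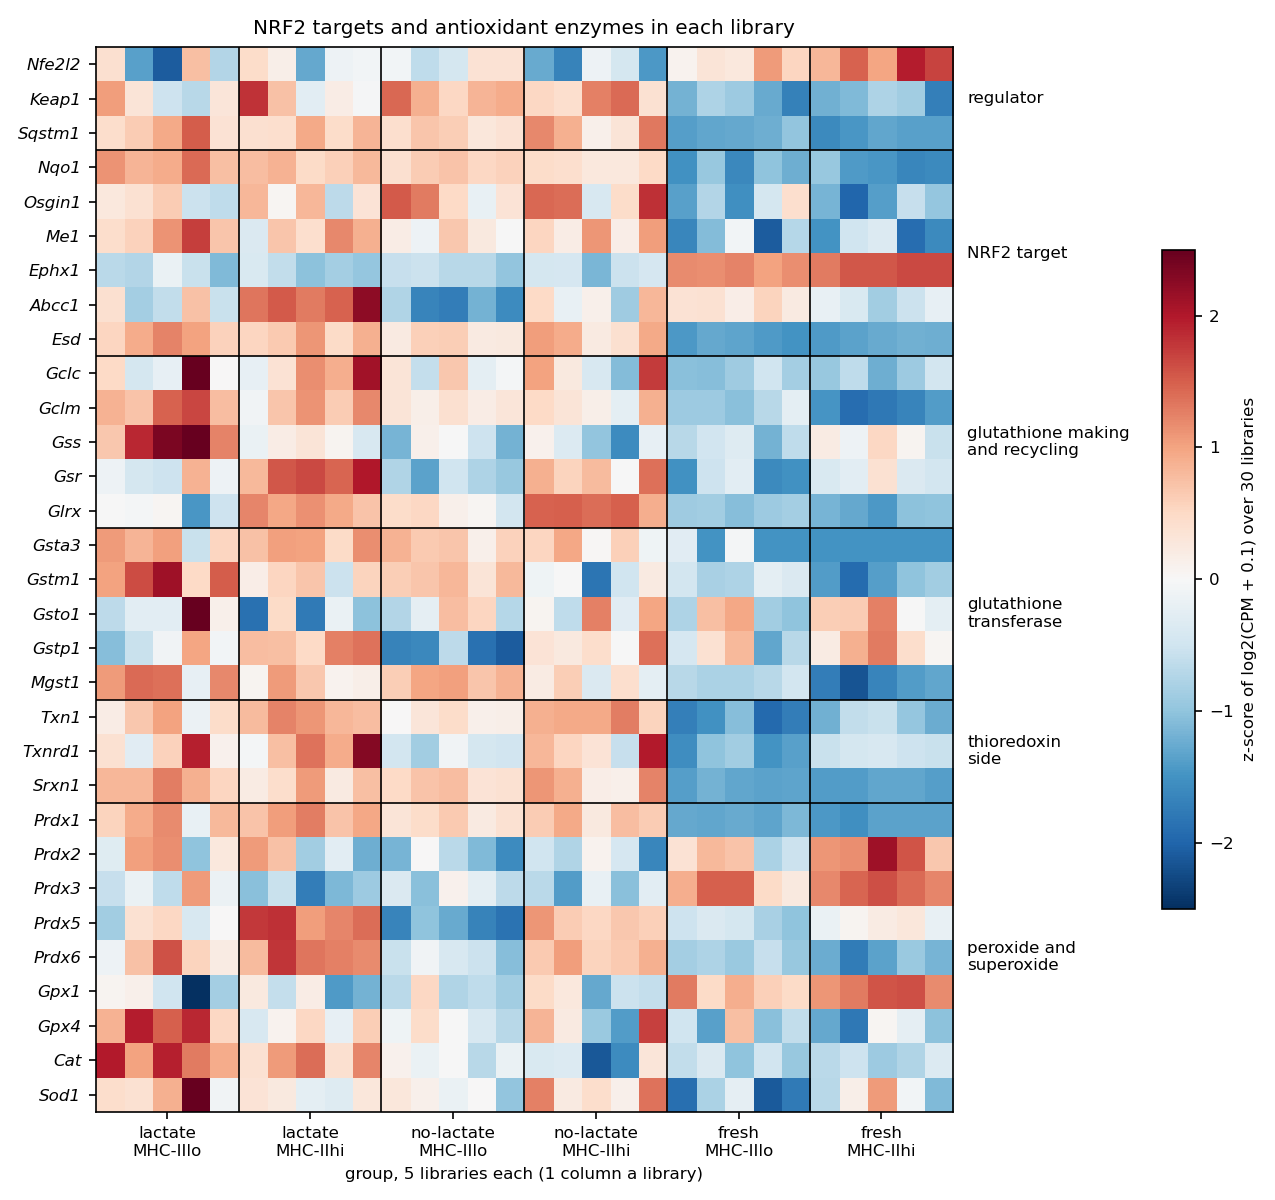
Levels of the 31 genes in each of the 30 libraries, as z-scores of log2(CPM + 0.1) over all libraries, with genes grouped by role and 5 columns a group. Most rows change colour between the 20 cultured columns and the 10 fresh ones. Ephx1, Prdx3 and Gpx1 run the other way. The mean CPM of Nfe2l2 was also lower in every cultured group than in either fresh group, with overlap between libraries in MHC-IIlo cells.

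The heat map of z-scores shows every member in every library. Its main boundary lies between cultured and fresh libraries.

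The first comparison asks what 24 h of culture without lactate, with the handling that went with it, did to the members. In MHC-IIlo cells 16 of 30 were higher and 6 lower than in fresh cells, and in MHC-IIhi cells 19 were higher and 5 lower (edgeR quasi-likelihood test, Benjamini-Hochberg adjusted p under 0.05 over all genes tested). Gsta3 is not counted here, since it passed the filter on low counts through the cultured libraries alone, and its counts are given below. Across all genes 57.5% were called in MHC-IIlo (27.6% higher, 29.9% lower) and 62% in MHC-IIhi cells (31.6% higher, 30.4% lower). The members' shares higher, 16 and 19 of 30, lay above those backgrounds, and the median log2 fold change of the 30 was 0.37 in MHC-IIlo and 0.56 in MHC-IIhi cells, against -0.01 and 0.01 over all genes. The members were chosen with earlier results of these data known, so these shares are a description and not a test of the list. The backgrounds cover all 13682 genes of this fit, including any that passed the filter through the cultured libraries alone. The 16 members higher in MHC-IIlo cells were all among the 19 higher in MHC-IIhi cells (all of the 16 and 84.2% of the 19). Ephx1, Prdx3 and Gpx1 were lower in both (3 of the 6 lower in MHC-IIlo and 60.0% of the 5 lower in MHC-IIhi cells). The overlap of culture calls over all genes was not counted, so these overlaps are not read as particular to the members. The culture effect was called different between the subsets for only 14.3% of all genes. Prdx5 was lower in MHC-IIlo and higher in MHC-IIhi cells, and Gss, Gsto1, Gpx4 and Cat were called in neither.

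The regulators did not move together. Nfe2l2 mRNA in MHC-IIlo cells read 184, 165, 171, 198 and 199 CPM in no-lactate libraries, against 189, 197, 195, 225 and 205 CPM in fresh libraries. Nfe2l2 in MHC-IIhi cells read 148, 137, 182, 172 and 144 CPM in no-lactate libraries, against 216, 243, 222, 265 and 252 CPM in fresh libraries. The MHC-IIhi groups did not overlap, with every cultured library below every fresh one, while the MHC-IIlo groups did. The log2 fold change of Nfe2l2, given like all later ones with its SE, was -0.09 ± 0.11, edgeR adjusted p = 0.489, in MHC-IIlo cells and -0.59 ± 0.11, edgeR adjusted p = 7.47e-05, in MHC-IIhi cells. Keap1, encoding the adaptor that marks NRF2 for degradation, read 120.2, 105, 95.5, 104 and 106 CPM in no-lactate libraries, against 62.2, 69.1, 66.5, 60.9 and 54.6 CPM in fresh libraries, in MHC-IIlo cells. Keap1 in MHC-IIhi cells read 95.2, 93.01, 115, 119.6 and 92.4 CPM in no-lactate libraries, against 61.9, 63.3, 69.04, 67.4 and 54.3 CPM in fresh libraries. Every cultured value lay above every fresh one. Keap1 rose by 0.82 ± 0.097, edgeR adjusted p = 2.64e-07, in MHC-IIlo cells and by 0.74 ± 0.097, edgeR adjusted p = 9.41e-07, in MHC-IIhi cells. Sqstm1, encoding p62, read 1212, 1456, 1379, 1112 and 1176 CPM in no-lactate libraries, against 372, 393, 399.8, 412 and 484 CPM in fresh libraries, in MHC-IIlo cells. Sqstm1 in MHC-IIhi cells read 2024, 1650.4, 1009, 1136 and 2206 CPM in no-lactate libraries, against 325, 356, 395, 379 and 379 CPM in fresh libraries. No cultured library came near the fresh range, and 3 of the 5 no-lactate MHC-IIhi libraries lay above every no-lactate MHC-IIlo library. Sqstm1 rose by 1.67 ± 0.18, edgeR adjusted p = 7.02e-08, in MHC-IIlo and by 2.16 ± 0.18, edgeR adjusted p = 1.43e-09, in MHC-IIhi cells.

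**Figure D2:**
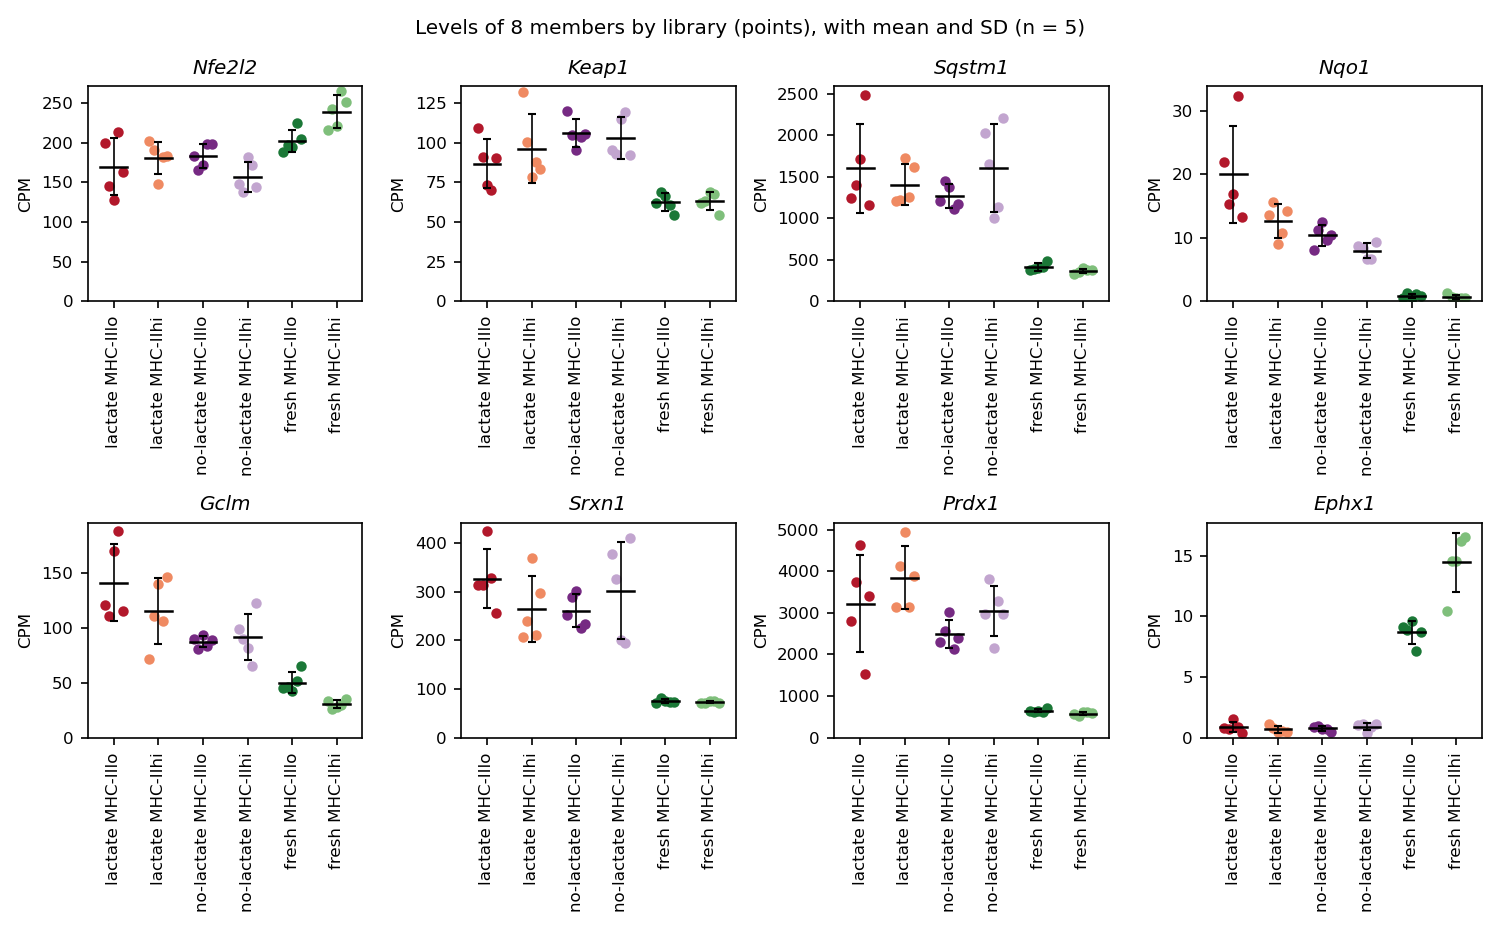
Levels in CPM (linear axis from 0) of 8 members in the 6 groups, 1 point a library, with the mean and SD (n = 5). For Sqstm1, Nqo1, Srxn1 and Prdx1 every cultured point lies above every fresh point, and for Ephx1 every cultured point lies below.

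The plot of levels by library sets these regulators beside 5 further members. Among the classical targets 4 of 6 rose in both subsets. Nqo1, encoding the NAD(P)H quinone reductase often used as a readout of NRF2, read 8.12, 11.2, 12.5, 9.605 and 10.4 CPM in no-lactate libraries, against 0.505, 1.21, 0.429, 1.12 and 0.812 CPM in fresh libraries, in MHC-IIlo cells. Nqo1 in MHC-IIhi cells read 8.75, 8.35, 6.67, 6.66 and 9.26 CPM in no-lactate libraries, against 1.23, 0.591, 0.562, 0.4204 and 0.446 CPM in fresh libraries. Fresh libraries were at or below 1.23 CPM and no-lactate libraries at or above 6.66 CPM. The log2 fold change of Nqo1 was 3.71 ± 0.27, edgeR adjusted p = 1.93e-10, in MHC-IIlo and 3.66 ± 0.28, edgeR adjusted p = 2.98e-10, in MHC-IIhi cells. Esd, encoding S-formylglutathione hydrolase, read 570.4, 742, 752, 573 and 578 CPM in no-lactate libraries, against 172, 193, 188, 175 and 166 CPM in fresh libraries, in MHC-IIlo cells. Esd in MHC-IIhi cells read 1030.1, 948, 572, 648 and 967 CPM in no-lactate libraries, against 174, 185, 196, 205 and 202 CPM in fresh libraries. Neither pair of groups overlapped, and Esd rose by 1.91 ± 0.15, edgeR adjusted p = 7.90e-10, in MHC-IIlo and by 2.15 ± 0.15, edgeR adjusted p = 1.12e-10, in MHC-IIhi cells.

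The other 2 targets higher in both subsets were expressed at lower levels. Osgin1, an oxidative stress-induced growth inhibitor, averaged 14.8 ± 2.73 CPM in no-lactate libraries and 10.3 ± 2.17 CPM in fresh libraries for MHC-IIlo cells (0.58 ± 0.20, edgeR adjusted p = 0.0144). Osgin1 in MHC-IIhi cells averaged 15.98 ± 3.502 CPM in no-lactate libraries and 8.97 ± 1.199 CPM in fresh libraries (0.86 ± 0.20, edgeR adjusted p = 0.000711). The MHC-IIlo groups overlapped and the MHC-IIhi groups did not, and the same held for Me1, the cytosolic malic enzyme that makes NADPH. Me1 averaged 7.53 ± 1.81 CPM in no-lactate libraries and 3.17 ± 1.88 CPM in fresh libraries for MHC-IIlo cells (1.31 ± 0.32, edgeR adjusted p = 0.00157). Me1 in MHC-IIhi cells averaged 10.5 ± 3.52 CPM in no-lactate libraries and 2.96 ± 1.58 CPM in fresh libraries (1.87 ± 0.33, edgeR adjusted p = 4.05e-05).

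Ephx1 and Abcc1 did not follow these targets. Ephx1, the microsomal epoxide hydrolase, read 0.869, 0.935, 0.752, 0.748 and 0.477 CPM in no-lactate libraries, against 9.08, 8.88, 9.62, 7.11 and 8.73 CPM in fresh libraries, in MHC-IIlo cells. Ephx1 in MHC-IIhi cells read 1.06, 1.09, 0.378, 0.915 and 1.103 CPM in no-lactate libraries, against 10.4, 14.5, 14.6, 16.2 and 16.5 CPM in fresh libraries. All 10 no-lactate libraries were at or below 1.103 CPM and all 10 fresh ones at or above 7.11 CPM. On the log2 scale Ephx1 fell by 3.44 ± 0.24, edgeR adjusted p = 7.72e-11, in MHC-IIlo cells and fell by 3.95 ± 0.24, edgeR adjusted p = 7.42e-12, in MHC-IIhi cells. Abcc1, encoding the MRP1 pump that exports glutathione conjugates, read 223, 169, 164, 196 and 173 CPM in no-lactate libraries, against 317, 318, 297, 335 and 303 CPM in fresh libraries, in MHC-IIlo cells. Abcc1 in MHC-IIhi cells read 331, 266, 294, 214 and 367 CPM in no-lactate libraries, against 266, 250.04, 216, 238 and 265 CPM in fresh libraries. In MHC-IIlo cells every cultured library was below every fresh one, while in MHC-IIhi cells the groups overlapped. The log2 fold change of Abcc1 was -0.71 ± 0.12, edgeR adjusted p = 4.04e-05, in MHC-IIlo and 0.28 ± 0.12, edgeR adjusted p = 0.05304, in MHC-IIhi cells.

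Of the 5 genes that make or recycle glutathione, 3 were higher in MHC-IIlo and 4 in MHC-IIhi cells, and none lower. Gclc encodes the catalytic subunit of the enzyme that starts glutathione synthesis, and in MHC-IIlo cells read 35.8, 27.3, 39.7, 30.2 and 32.003 CPM in no-lactate libraries, against 23.8, 23.7, 24.95, 27.99 and 25.2 CPM in fresh libraries. Gclc in MHC-IIhi cells read 43.8, 34.997, 28.9, 23.6 and 54.6 CPM in no-lactate libraries, against 24.6, 27.02, 22.6, 24.9 and 28.4 CPM in fresh libraries. The groups overlapped in both subsets, and the rise was 0.44 ± 0.16, edgeR adjusted p = 0.0239, in MHC-IIlo and 0.57 ± 0.16, edgeR adjusted p = 0.00404, in MHC-IIhi cells. Its modifier subunit Gclm read 90.1, 81.2, 93.5, 83.4 and 89.04 CPM in no-lactate libraries, against 45.6, 45.8, 42.2, 51.3 and 65.6 CPM in fresh libraries, in MHC-IIlo cells. Gclm in MHC-IIhi cells read 98.5, 90.3, 81.7, 65.6 and 123 CPM in no-lactate libraries, against 33.5, 26.3, 28.1, 30.1 and 34.9 CPM in fresh libraries. The groups did not overlap, and the rise was 0.85 ± 0.15, edgeR adjusted p = 5.27e-05, in MHC-IIlo and 1.61 ± 0.15, edgeR adjusted p = 8.82e-09, in MHC-IIhi cells. Glrx, encoding a glutaredoxin that removes glutathione from protein thiols, read 283, 293, 229.97, 219 and 162 CPM in no-lactate libraries, against 123, 124, 109.95, 122 and 127 CPM in fresh libraries, in MHC-IIlo cells. Glrx in MHC-IIhi cells read 532, 541, 506, 537 and 376 CPM in no-lactate libraries, against 104, 96.6, 87.99, 114 and 115 CPM in fresh libraries. Each no-lactate library was above each fresh library of its subset. Glrx rose by 1.03 ± 0.16, edgeR adjusted p = 1.63e-05, in MHC-IIlo and by 2.30 ± 0.17, edgeR adjusted p = 1.83e-10, in MHC-IIhi cells. Gsr, the reductase that regenerates glutathione, differed by 0.16 ± 0.11, edgeR adjusted p = 0.238, in MHC-IIlo and rose by 0.56 ± 0.11, edgeR adjusted p = 0.000231, in MHC-IIhi cells. Gss, which completes glutathione synthesis, differed by 0.12 ± 0.13, edgeR adjusted p = 0.448, in MHC-IIlo and -0.19 ± 0.13, edgeR adjusted p = 0.198, in MHC-IIhi cells.

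Of the 5 glutathione transferases, which couple glutathione to electrophiles, Mgst1 and Gstm1 were higher in both subsets. Gsta3, which was too low for the fresh comparison, had 167 counts in the 5 no-lactate MHC-IIlo and 126 counts in the 5 no-lactate MHC-IIhi libraries, against 16 counts in fresh MHC-IIlo and 0 counts in fresh MHC-IIhi libraries. Against a floor of 3 counts over the fresh MHC-IIhi group, its pooled level in no-lactate MHC-IIhi libraries was 32.2-fold higher. The error of that pooled level was not taken into account, so the value is not a lower bound. Gsta3 read 1.098, 1.91, 0.545, 1.18 and 0.441 CPM in no-lactate MHC-IIhi libraries. Gsta3 in MHC-IIlo cells read 1.67, 1.28, 1.35, 0.624 and 1.14 CPM in no-lactate libraries, against 0.336, 0, 0.476, 0 and 0 CPM in fresh libraries, without overlap, and no test is given because the filter kept it only through the cultured libraries. Mgst1, the microsomal transferase, averaged 73.7 ± 8.98 CPM in no-lactate libraries and 25.4 ± 2.48 CPM in fresh libraries for MHC-IIlo cells (1.59 ± 0.20, edgeR adjusted p = 8.53e-07). Mgst1 in MHC-IIhi cells averaged 46.1 ± 13.2 CPM in no-lactate libraries and 13.1 ± 2.95 CPM in fresh libraries (1.84 ± 0.21, edgeR adjusted p = 1.23e-07). Neither pair of Mgst1 groups overlapped. Gstm1 averaged 85.6 ± 9.27 CPM in no-lactate libraries and 44.4 ± 6.22 CPM in fresh libraries for MHC-IIlo cells (0.99 ± 0.23, edgeR adjusted p = 0.000974) and overlapped between cultured and fresh MHC-IIhi libraries alone (0.80 ± 0.23, edgeR adjusted p = 0.00531). Gstp1 in MHC-IIlo cells read 13.4, 13.6, 18.4, 12.6 and 11.8 CPM in no-lactate libraries, against 19.8, 25.4, 29.1, 15.1 and 18.2 CPM in fresh libraries. These groups overlapped, and Gstp1 fell by 0.55 ± 0.13, edgeR adjusted p = 0.00126, in MHC-IIlo cells, against -0.01 ± 0.13, edgeR adjusted p = 0.968, in MHC-IIhi cells. Gsto1 was called in neither subset (0.09 in MHC-IIlo and -0.01 in MHC-IIhi cells).

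On the thioredoxin side all 3 genes rose in both subsets. Srxn1, encoding the sulfiredoxin that repairs over-oxidised peroxiredoxins, read 252, 289, 302, 225 and 233 CPM in no-lactate libraries, against 71.6, 81.8, 75.1, 73.4 and 74.02 CPM in fresh libraries, in MHC-IIlo cells. Srxn1 in MHC-IIhi cells averaged 302 ± 99.97 CPM in no-lactate libraries and 72.6 ± 2.36 CPM in fresh libraries. No cultured value reached down to a fresh one, and Srxn1 rose by 1.85 ± 0.17, edgeR adjusted p = 5.43e-09, in MHC-IIlo and by 2.09 ± 0.17, edgeR adjusted p = 7.39e-10, in MHC-IIhi cells. Txn1, thioredoxin itself, averaged 420.4 ± 22.8 CPM in no-lactate libraries and 240.2 ± 25.8 CPM in fresh libraries for MHC-IIlo cells (0.87 ± 0.086, edgeR adjusted p = 2.05e-08). Txn1 in MHC-IIhi cells averaged 527 ± 42.2 CPM in no-lactate libraries and 296 ± 30.04 CPM in fresh libraries (0.87 ± 0.086, edgeR adjusted p = 1.56e-08). Txn1 did not overlap between cultured and fresh libraries of either subset, while Txnrd1, the reductase that recharges thioredoxin, overlapped in both. Txnrd1 rose by 0.36 ± 0.11, edgeR adjusted p = 0.00566, in MHC-IIlo and by 0.50 ± 0.11, edgeR adjusted p = 0.000324, in MHC-IIhi cells.

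The 9 enzymes that remove peroxide and superoxide were split, with 2 up and 3 down in MHC-IIlo, and 4 up and 3 down in MHC-IIhi cells. Prdx1 in MHC-IIlo cells read 2301, 2572, 3014, 2138 and 2405 CPM in no-lactate libraries, against 637, 627, 643, 615 and 718 CPM in fresh libraries. Prdx1 in MHC-IIhi cells read 2972, 3824, 2148, 3290.4 and 2978 CPM in no-lactate libraries, against 558, 518, 609, 608 and 604 CPM in fresh libraries. The highest fresh library of the 10 had 718 CPM and the lowest no-lactate library more than double that. Prdx1 rose by 1.99 ± 0.15, edgeR adjusted p = 3.10e-10, in MHC-IIlo and by 2.43 ± 0.15, edgeR adjusted p = 1.40e-11, in MHC-IIhi cells. Prdx3, the mitochondrial peroxiredoxin, read 37.6, 31.2, 42.8, 38.8 and 34.6 CPM in no-lactate libraries, against 53.3, 62.6, 62.5, 47.4 and 44.4 CPM in fresh libraries, in MHC-IIlo cells. Prdx3 in MHC-IIhi cells read 34.5, 28.3, 39.4, 31.2 and 38.6 CPM in no-lactate libraries, against 57.6, 61.8, 64.6, 61.01 and 57.9 CPM in fresh libraries. Without overlap in either subset, Prdx3 fell by 0.49 ± 0.079, edgeR adjusted p = 1.82e-05, in MHC-IIlo and fell by 0.79 ± 0.079, edgeR adjusted p = 1.93e-08, in MHC-IIhi cells. Gpx1 in MHC-IIlo cells read 733, 993, 717, 738 and 697 CPM in no-lactate libraries, against 1216, 986, 1103, 1018 and 986 CPM in fresh libraries. Gpx1 in MHC-IIhi cells read 987, 931, 625, 757 and 746 CPM in no-lactate libraries, against 1159, 1215, 1309.6, 1323 and 1181 CPM in fresh libraries. The MHC-IIlo groups overlapped through no-lactate MHC-IIlo 3 and the MHC-IIhi groups did not. Gpx1 fell by 0.39 ± 0.15, edgeR adjusted p = 0.0284, in MHC-IIlo and fell by 0.57 ± 0.15, edgeR adjusted p = 0.00211, in MHC-IIhi cells.

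Of the remaining peroxide enzymes, Prdx2, a cytosolic peroxiredoxin abundant in red cells, read 191, 184, 207, 193 and 163 CPM in no-lactate libraries, against 239, 241, 275, 255 and 225 CPM in fresh libraries, in MHC-IIhi cells. The groups did not overlap, and Prdx2 fell by 0.36 ± 0.090, edgeR adjusted p = 0.00163, in MHC-IIhi cells, against -0.14 ± 0.090, edgeR adjusted p = 0.191, in MHC-IIlo cells. The 7 red cell markers summed to 0.449 CPM in no-lactate MHC-IIlo, 0.646 CPM in no-lactate MHC-IIhi, 22.98 CPM in fresh MHC-IIlo and 20.8 CPM in fresh MHC-IIhi libraries on average, and their part in the Prdx2 values was not tested. Prdx6, a peroxiredoxin that also acts on phospholipids, read 495, 588, 477, 497 and 551 CPM in no-lactate libraries, against 219, 176, 210.4, 249.7 and 226 CPM in fresh libraries, in MHC-IIhi cells (1.30 ± 0.14, edgeR adjusted p = 3.58e-08). Prdx6 in MHC-IIlo cells differed by 0.24 ± 0.13, edgeR adjusted p = 0.122. Sod1, the copper and zinc superoxide dismutase, rose by 0.39 ± 0.099, edgeR adjusted p = 0.00207, in MHC-IIlo and by 0.25 ± 0.098, edgeR adjusted p = 0.0304, in MHC-IIhi cells, with overlap in both. Catalase (Cat) and Gpx4, the enzyme that reduces lipid peroxides, were called in neither subset. The log2 fold change of Gpx4 was 0.14 in MHC-IIlo and 0.23 in MHC-IIhi cells. Cat averaged 103 ± 8.28 CPM in no-lactate libraries and 90.4 ± 6.896 CPM in fresh libraries for MHC-IIlo cells, and 89.3 ± 22.9 CPM in no-lactate libraries and 91.4 ± 5.57 CPM in fresh libraries for MHC-IIhi cells.

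**Figure D3:**
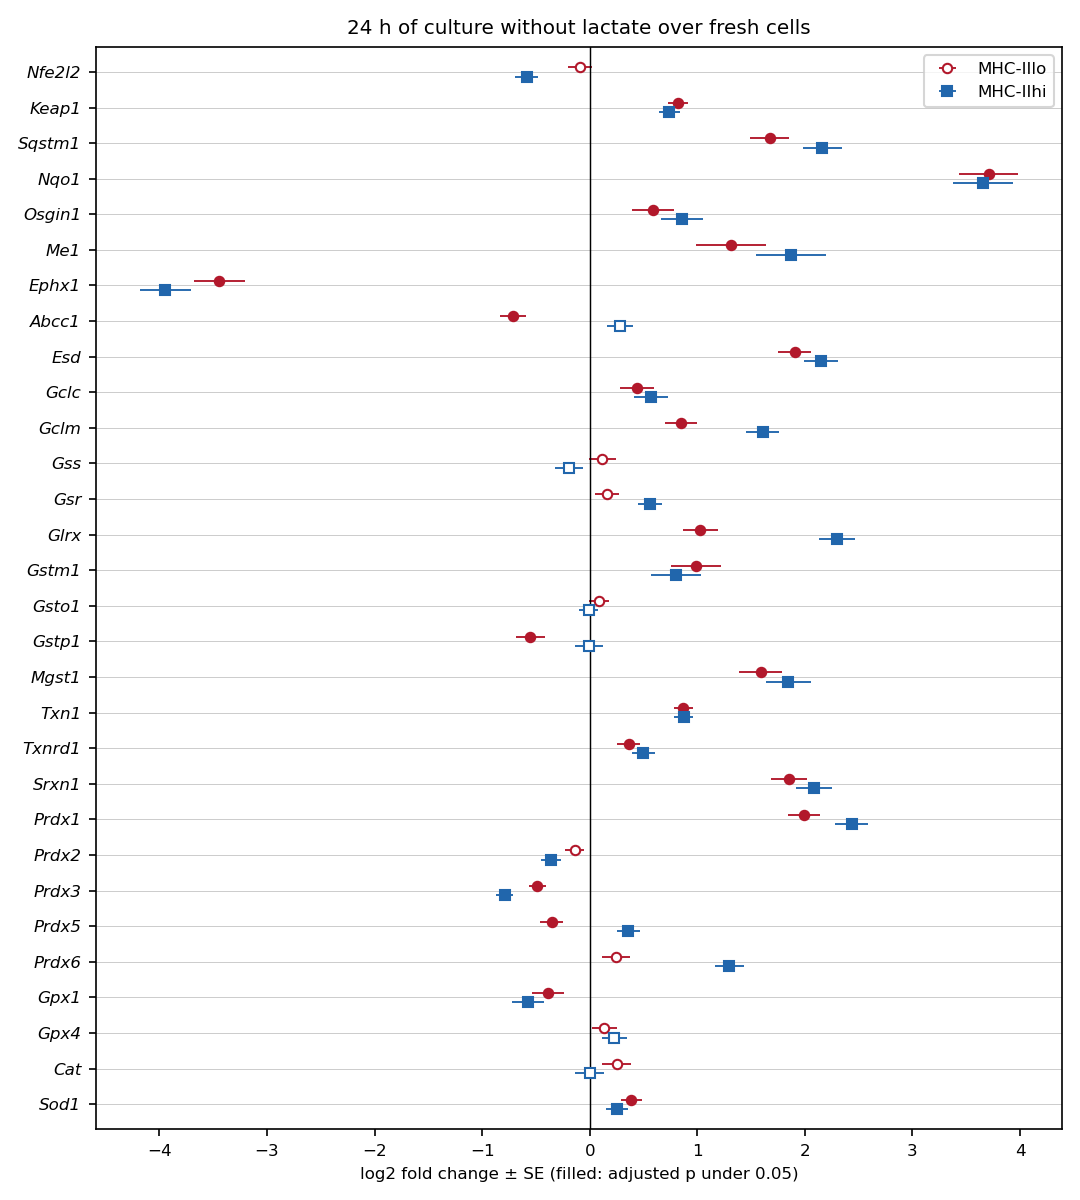
Log2 fold change with its SE of 30 members for culture without lactate over fresh cells, MHC-IIlo above MHC-IIhi in each row, filled where edgeR's adjusted p is under 0.05; Gsta3 is left out because it had 0 counts in fresh MHC-IIhi cells. Nqo1 lies furthest right in both subsets, at 3.71 in MHC-IIlo and 3.66 in MHC-IIhi cells, and Ephx1 furthest left, at -3.44 in MHC-IIlo and -3.95 in MHC-IIhi cells.

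The plot of culture effects shows the subsets side by side. A called change was lost on leaving out 1 library for 3 members. They were Sod1 in MHC-IIhi cells without fresh MHC-IIhi 1, 2 or 5 or no-lactate MHC-IIhi 3 or 7 (edgeR adjusted p = 0.0508 to 0.0930), Gclc in MHC-IIlo cells without fresh MHC-IIlo 2 or 3 or no-lactate MHC-IIlo 1 or 4 (0.0526 to 0.0585), and Gpx1 in MHC-IIlo cells without fresh MHC-IIlo 1 or 4 or no-lactate MHC-IIlo 1, 4, 5 or 6 (0.0525 to 0.0841). On the authors' FPKM values, as log2(FPKM + 1), Gclc and Gpx1 were not called in MHC-IIlo cells (limma adjusted p = 0.0757 and 0.666). On the same scale Prdx1 rose by 3.45 in MHC-IIlo cells, Prdx5 differed by -0.20 in MHC-IIlo and 0.74 in MHC-IIhi cells, and Nfe2l2 by -0.91 in MHC-IIhi cells. The pseudocount of 1 holds down changes of low genes, and Nqo1 rose there by 2.18 in MHC-IIlo and 1.87 in MHC-IIhi cells, Me1 by 0.66 in MHC-IIlo and 0.95 in MHC-IIhi cells, and Ephx1 differed by -1.94 in MHC-IIlo and -2.52 in MHC-IIhi cells.

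Whether culture acted differently on the subsets was tested as the MHC-IIlo minus the MHC-IIhi effect. It was called for 6 of the 30 members, 1 higher and 5 lower, against 14.3% of all genes (6.03% higher, 8.27% lower). For Nfe2l2, which fell in MHC-IIhi cells, the difference was 0.50 ± 0.15, edgeR adjusted p = 0.0327. For Glrx and Gclm, which rose less in MHC-IIlo cells, it was -1.27 ± 0.23, edgeR adjusted p = 0.000743, and -0.76 ± 0.21, edgeR adjusted p = 0.0183. For Abcc1 it was -0.99 ± 0.17, edgeR adjusted p = 0.000552. Prdx6 in MHC-IIlo cells read 294, 361, 314, 296 and 237 CPM in no-lactate libraries, against 259, 268, 250.3, 292 and 248 CPM in fresh libraries. For Prdx6 the difference was -1.05 ± 0.19, edgeR adjusted p = 0.000673. Prdx5, a peroxiredoxin of mitochondria, peroxisomes and cytosol, read 325, 405, 373, 324 and 304 CPM in no-lactate libraries, against 478, 505, 492, 433 and 406 CPM in fresh libraries, in MHC-IIlo cells. Prdx5 in MHC-IIhi cells read 825, 705, 677, 716 and 696 CPM in no-lactate libraries, against 538, 582, 612, 626 and 535 CPM in fresh libraries. The groups did not overlap in either subset and lay in opposite order. Prdx5 fell by 0.35 ± 0.10, edgeR adjusted p = 0.00607, in MHC-IIlo cells and rose by 0.36 ± 0.10, edgeR adjusted p = 0.00496, in MHC-IIhi cells, a difference of -0.71 ± 0.15, edgeR adjusted p = 0.00220. The culture effects on Nqo1, Keap1 and Srxn1 differed between the subsets by 0.05, 0.08 and -0.24, without a call. The Nfe2l2 difference was lost without any 1 of 10 of the 20 libraries, namely fresh MHC-IIlo 1, 2 or 3, fresh MHC-IIhi 4 or 5, no-lactate MHC-IIlo 1, 5 or 6 or no-lactate MHC-IIhi 4 or 7 (edgeR adjusted p = 0.0507 to 0.0684), and with all 30 libraries in the fit (0.0583). Dendritic cell markers moved with this contrast, as given above, and their part was not tested. On log2(FPKM + 1) values 1211 of the 2199 genes called across the table were higher for this difference, against 825 of 1957 by edgeR.

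The second question is how the subsets differed, and it was asked in each state. In fresh cells 12 of the 30 members tested passed, and MHC-IIlo cells had more of 4 and less of 8, against 29.2% of all genes (14% higher, 15.2% lower). The median over these members was -0.01. Mgst1 read 25.2, 23.5, 23.3, 25.3 and 29.5 CPM in MHC-IIlo libraries, against 12.1, 8.93, 12.8, 15.4 and 16.5 CPM in MHC-IIhi libraries. It was higher by 0.95 ± 0.17, edgeR adjusted p = 0.00111, without overlap. Gclm, from the fresh values above, was higher by 0.73 ± 0.15, edgeR adjusted p = 0.00249, also without overlap, while its partner Gclc did not pass the test (-0.01 ± 0.10, edgeR adjusted p = 0.968). Gstm1 read 45.9, 37.5, 38.5, 51.8 and 48.4 CPM in MHC-IIlo libraries, against 27.3, 20.2, 27.5, 33.6 and 36.4 CPM in MHC-IIhi libraries. It was higher by 0.62 ± 0.18, edgeR adjusted p = 0.0185, without overlap. Abcc1 was higher by 0.36 ± 0.089, edgeR adjusted p = 0.00835, each fresh MHC-IIlo value exceeding each fresh MHC-IIhi value.

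Lower in fresh MHC-IIlo cells were Ephx1 (-0.73 ± 0.14, edgeR adjusted p = 0.00197) and Prdx5 (-0.32 ± 0.075, edgeR adjusted p = 0.00642), neither with overlap. Gsr read 64.5, 94.3, 104, 62.7 and 64.5 CPM in MHC-IIlo libraries, against 99.4, 104, 132, 99.96 and 96.6 CPM in MHC-IIhi libraries. The Gsr groups overlapped, and the difference was -0.45 ± 0.12, edgeR adjusted p = 0.0133. Sod1 read 44.5, 54.8, 61.001, 42.7 and 45.4 CPM in MHC-IIlo libraries, against 55.7, 65.5, 77.6, 62.6 and 51.6 CPM in MHC-IIhi libraries. Txn1 read 231, 245, 282, 214 and 229 CPM in MHC-IIlo libraries, against 269, 324, 331, 291 and 267 CPM in MHC-IIhi libraries. Both genes overlapped between subsets, with differences of -0.33 ± 0.10, edgeR adjusted p = 0.0262, for Sod1 and -0.30 ± 0.072, edgeR adjusted p = 0.00748, for Txn1. Txnrd1 (-0.29 ± 0.055, edgeR adjusted p = 0.00188), Gss (-0.26 ± 0.089, edgeR adjusted p = 0.0422) and Prdx2 (-0.24 ± 0.069, edgeR adjusted p = 0.0203) were also lower. Nfe2l2, Keap1 and Nqo1 differed by -0.23, -0.01 and 0.36, without a call.

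Some calls for small fresh differences lay near the threshold and were lost on leaving out 1 library. Sod1 was lost without fresh MHC-IIlo 1, 4 or 5 or fresh MHC-IIhi 3 or 4 (edgeR adjusted p = 0.0585 to 0.0673), Prdx2 without fresh MHC-IIlo 4 or 5 or fresh MHC-IIhi 3 or 5 (0.0521 to 0.0538), and Gss without any 1 fresh MHC-IIlo library or fresh MHC-IIhi 1, 3 or 4 (0.0548 to 0.101). With all 30 libraries in the fit Prdx2, Txnrd1, Prdx5, Gss, Txn1 and Gstm1 were not called (0.0860 to 0.218). On log2(FPKM + 1) values Prdx5 differed by -0.09 (limma adjusted p = 0.341), Sod1 by -0.26 (0.0563) and Gss by -0.18 (0.0577).

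After culture without lactate 8 of 31 members differed between the subsets, 1 higher and 7 lower in MHC-IIlo cells, against 20.8% of all genes (9.2% higher, 11.6% lower). The median over the members was -0.13. From the no-lactate values above, the differences were -1.03 ± 0.26, edgeR adjusted p = 0.00574, for Glrx and -1.03 ± 0.17, edgeR adjusted p = 0.000106, for Prdx5. Gstp1 in MHC-IIhi cells read 25.1, 24.4, 25.9, 22.5 and 34.7 CPM in no-lactate MHC-IIhi libraries, against which MHC-IIlo cells differed by -0.89 ± 0.12, edgeR adjusted p = 1.21e-05. Gsr read 86.5, 69.02, 94.6, 85.3 and 80.2 CPM in MHC-IIlo libraries, against 162, 142, 155, 115 and 195 CPM in MHC-IIhi libraries. The difference was -0.85 ± 0.11, edgeR adjusted p = 8.18e-06. Prdx6 read 294, 361, 314, 296 and 237 CPM in MHC-IIlo libraries, against 495, 588, 477, 497 and 551 CPM in MHC-IIhi libraries. The difference was -0.76 ± 0.19, edgeR adjusted p = 0.00575. In each of these 5 genes no MHC-IIlo library reached the lowest MHC-IIhi library. Abcc1 (-0.63 ± 0.13, edgeR adjusted p = 0.00174) and Txnrd1 (-0.42 ± 0.15, edgeR adjusted p = 0.0465) were also lower, and overlapped. Gstm1 read 83.3, 86.8, 94.2, 71.1 and 92.8 CPM in MHC-IIlo libraries, against 55.98, 58.7, 21.4, 44.99 and 66.8 CPM in MHC-IIhi libraries. It was higher by 0.82 ± 0.29, edgeR adjusted p = 0.0477, without overlap. The call for Gstm1 was lost without any 1 of the 10 libraries (edgeR adjusted p = 0.0527 to 0.105). That for Txnrd1 was lost without any 1 no-lactate MHC-IIlo library or no-lactate MHC-IIhi 3, 4 or 7 (0.0644 to 0.147) and on log2(FPKM + 1) values (limma adjusted p = 0.0789). On those values 1595 of the 2749 genes called across the whole table were higher in MHC-IIlo cells, against 1250 of 2830 by edgeR.

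With lactate 9 of 31 members differed between the subsets, 4 higher and 5 lower in MHC-IIlo cells, against 22.4% of all genes (9.13% higher, 13.3% lower), and the median was 0.05. Glrx read 213, 208, 219, 87.03 and 155 CPM in MHC-IIlo libraries, against 457, 386, 435, 386 and 329.9 CPM in MHC-IIhi libraries. The groups did not overlap, and the difference was -1.17 ± 0.26, edgeR adjusted p = 0.00235, and -0.95 without lactate MHC-IIlo 5 (edgeR adjusted p = 0.00109). Gsr read 109.6, 96.9, 94.3, 159.7 and 109 CPM in MHC-IIlo libraries, against 157, 208, 216, 199.6 and 246 CPM in MHC-IIhi libraries. Lactate MHC-IIlo 5 brought its group into the MHC-IIhi range, and the difference was -0.90 ± 0.11, edgeR adjusted p = 4.72e-06. Abcc1 read 319, 216, 233, 356 and 238 CPM in MHC-IIlo libraries, against 429, 457, 423, 449 and 568 CPM in MHC-IIhi libraries. Prdx5 read 424, 649, 680.2, 497 and 571 CPM in MHC-IIlo libraries, against 1033, 1060.4, 812, 862 and 912 CPM in MHC-IIhi libraries. Neither overlapped, and the differences were -0.82 ± 0.13, edgeR adjusted p = 0.000144, for Abcc1 and -0.75 ± 0.16, edgeR adjusted p = 0.00242, for Prdx5, which was -0.63 without lactate MHC-IIlo 5. Gstp1 read 16.2, 18.9, 22.01, 30.6 and 22.1 CPM in MHC-IIlo libraries, against 28.6, 28.5, 26.3, 33.3 and 34.4 CPM in MHC-IIhi libraries, with overlap and a difference of -0.51 ± 0.12, edgeR adjusted p = 0.00347.

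Higher in lactate MHC-IIlo cells were Gstm1, Gss, Nqo1 and Prdx3. Gstm1 read 104, 147, 193, 77.8 and 138 CPM in MHC-IIlo libraries, against 65.3, 79.9, 87.3, 43.7 and 80.9 CPM in MHC-IIhi libraries. The groups overlapped, and the difference was 0.89 ± 0.29, edgeR adjusted p = 0.0301, and 1.08 without lactate MHC-IIlo 5 (edgeR adjusted p = 0.00435). Gss read 25.4, 35.2, 39.96, 44.95 and 29.6 CPM in MHC-IIlo libraries, against 20.2, 22.3, 23.2, 21.6 and 19.04 CPM in MHC-IIhi libraries, without overlap and with a difference of 0.68 ± 0.15, edgeR adjusted p = 0.00278. Nqo1 read 21.998, 15.2, 16.9, 32.3 and 13.3 CPM in MHC-IIlo libraries, against 13.6, 15.6, 9.02, 10.7 and 14.2 CPM in MHC-IIhi libraries. The groups overlapped, and the difference was 0.59 ± 0.18, edgeR adjusted p = 0.0241. Prdx3 read 35.4, 39.7, 34.9, 55.6 and 39.8 CPM in MHC-IIlo libraries, against 31.1, 35.6, 25.7, 30.5 and 32.3 CPM in MHC-IIhi libraries, with overlap and a difference of 0.35 ± 0.091, edgeR adjusted p = 0.00824. Without lactate MHC-IIlo 5, Nqo1 was no longer called (0.47 ± 0.18, edgeR adjusted p = 0.0590), Mgst1 was called (0.87 ± 0.23, 0.00838), and the other 8 calls held. Nqo1 was also lost without lactate MHC-IIlo 1 or lactate MHC-IIhi 4 or 5 (0.0578 to 0.0667), and Gstm1 without lactate MHC-IIlo 3, 4 or 6 or lactate MHC-IIhi 1, 5 or 6 (0.05004 to 0.108). On log2(FPKM + 1) values 1794 of 3128 genes called across the table were higher in MHC-IIlo cells, against 1241 of 3045 by edgeR.

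**Figure D4:**
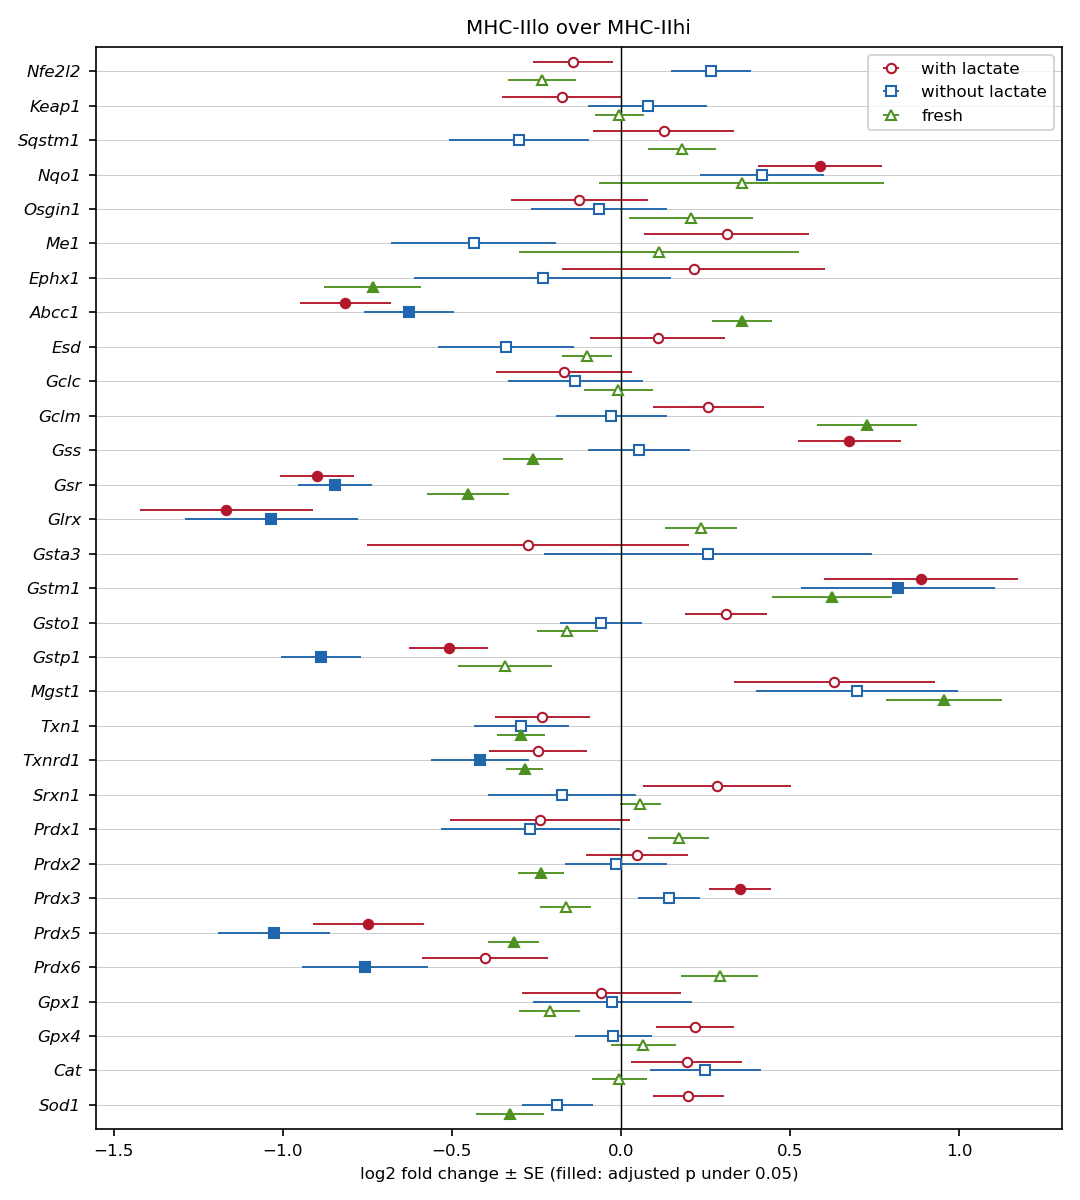
Log2 fold change with its SE of MHC-IIlo over MHC-IIhi cells for each member with lactate, without lactate and fresh, from the top of each row down, filled where edgeR's adjusted p is under 0.05. Gsr and Prdx5 are filled to the left of 0 in all 3 states and Gstm1 to the right; Abcc1 is filled at -0.82 with lactate, at -0.63 without and at 0.36 in fresh cells.

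The plot of subset differences brings the 3 states together, which use separate libraries. Gsr and Prdx5 were lower and Gstm1 higher in MHC-IIlo cells in each of the 3, though not all of these calls were steady. The no-lactate Gstm1 call was lost without any 1 of its 10 libraries, and the lactate one without any 1 of 6 of its 10. With all 30 libraries in the fit the fresh calls for Gstm1 (edgeR adjusted p = 0.110) and Prdx5 (0.118) were lost. On log2(FPKM + 1) values the fresh Prdx5 difference was -0.09 (limma adjusted p = 0.341). Abcc1 was lower in MHC-IIlo cells in both cultures and higher when fresh. Glrx was also lower in both cultures, and its difference in fresh cells was 0.24 ± 0.11, edgeR adjusted p = 0.117. Ephx1, lower in fresh MHC-IIlo cells, was at or below 1.55 CPM in every cultured library.

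The third comparison is lactate against no lactate. In MHC-IIlo cells 4 of 31 members were higher with lactate and none lower, against 1.49% of all genes (0.905% higher, 0.581% lower). The log2 fold change was above 0 for 26 of the 31 and its median was 0.25, against 0.01 over all genes. Gss in MHC-IIlo cells read 25.4, 35.2, 39.96, 44.95 and 29.6 CPM in lactate libraries, against 15.5, 21.9, 21.2, 18.4 and 15.4 CPM in no-lactate libraries. The groups did not overlap, and Gss was higher by 0.86 ± 0.15, edgeR adjusted p = 0.00821. Gss overlaps Acss2 on the opposite strand, which averaged 5.06 CPM in lactate MHC-IIlo and 5.46 CPM in no-lactate MHC-IIlo libraries. Nqo1, from the values above, was higher by 0.85 ± 0.18, edgeR adjusted p = 0.0239, with each lactate library above each no-lactate one. Prdx5 was higher by 0.66 ± 0.16, edgeR adjusted p = 0.0468, likewise without overlap. Gstp1 was higher by 0.58 ± 0.12, edgeR adjusted p = 0.02104, with overlap. Gclm with lactate read 121, 111, 169.8, 188 and 116 CPM in lactate MHC-IIlo libraries, all above the no-lactate range of 81.2 to 93.5 CPM. It missed the threshold at 0.62 ± 0.16, edgeR adjusted p = 0.0594. Gclc read 37.8, 28.6, 30.5, 72.7 and 32.6 CPM in lactate MHC-IIlo libraries, with lactate MHC-IIlo 5 above the other 4, and differed by 0.19 ± 0.20, edgeR adjusted p = 0.666, and by 0.01 without that library. Nfe2l2 read 199.7, 146, 127, 213 and 163 CPM in lactate MHC-IIlo libraries. Keap1 read 109, 90.8, 73.4, 70.3 and 90.5 CPM in lactate MHC-IIlo libraries. Both overlapped with no-lactate cells and differed by -0.18 ± 0.12, edgeR adjusted p = 0.445, and -0.33 ± 0.18, edgeR adjusted p = 0.346. Without lactate MHC-IIlo 5 the Keap1 difference was -0.19.

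The MHC-IIlo calls varied with the libraries used. Without lactate MHC-IIlo 5 the calls were Gss (0.86), Prdx6 (0.79), Prdx5 (0.78), Cat (0.69) and Gstp1 (0.54), while Nqo1 was lost (0.74 ± 0.18, edgeR adjusted p = 0.0514). Gss was the sole call without lactate MHC-IIlo 4 or without no-lactate MHC-IIlo 1, 5 or 6, and Prdx5 was also lost without lactate MHC-IIlo 3 or 6 or no-lactate MHC-IIlo 3 or 4 (0.0525 to 0.125 over all 8 of its losses). DESeq2 called 9 members, adding Abcc1, Prdx6, Cat, Gclm and Gsr to the 4. With the library number as a block, edgeR added these and also Esd and Me1.

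In MHC-IIhi cells lactate was followed by 1 called member of 31, against 0.25% of all genes (0.206% higher, 0.0441% lower). It was Abcc1, for which the lactate and no-lactate values given above did not overlap, and it was higher by 0.67 ± 0.13, edgeR adjusted p = 0.0324. The log2 fold change was above 0 for 20 of the 31 members, with a median of 0.17. Nqo1 in MHC-IIhi cells read 13.6, 15.6, 9.02, 10.7 and 14.2 CPM in lactate libraries, against 8.75, 8.35, 6.67, 6.66 and 9.26 CPM in no-lactate libraries. The groups overlapped, and it differed by 0.68 ± 0.18, edgeR adjusted p = 0.164. Cat averaged 139 ± 17.7 CPM in lactate libraries and 89.3 ± 22.9 CPM in no-lactate libraries, without overlap, and differed by 0.65 ± 0.17, edgeR adjusted p = 0.128. Gclc with lactate read 30.6, 36.2, 45.9, 42.4 and 60.6 CPM in lactate MHC-IIhi libraries. Gclm with lactate read 71.6, 110.5, 140.3, 107 and 146 CPM in lactate MHC-IIhi libraries. They overlapped with no-lactate cells and differed by 0.22 ± 0.20, edgeR adjusted p = 0.764, and 0.34 ± 0.16, edgeR adjusted p = 0.515. Nfe2l2 with lactate read 202, 191, 148, 182 and 184 CPM in lactate MHC-IIhi libraries. Keap1 with lactate read 132, 100.5, 78.3, 87.5 and 83.3 CPM in lactate MHC-IIhi libraries. These overlapped as well and differed by 0.23 ± 0.12, edgeR adjusted p = 0.545, and -0.07 ± 0.18, edgeR adjusted p = 0.927. The call for Abcc1 was lost without lactate MHC-IIhi 1, 3, 4 or 6 or no-lactate MHC-IIhi 4, 5 or 6 (edgeR adjusted p = 0.0574 to 0.133), which left no member called, and with library totals in place of normalisation factors (0.107). DESeq2 called Nqo1, Cat and Gsr as well (adjusted p = 0.0455, 0.0315 and 0.0186). With the library number as a block, edgeR called Cat (0.73, edgeR adjusted p = 0.00634) beside Abcc1 (edgeR adjusted p = 0.0226).

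**Figure D5:**
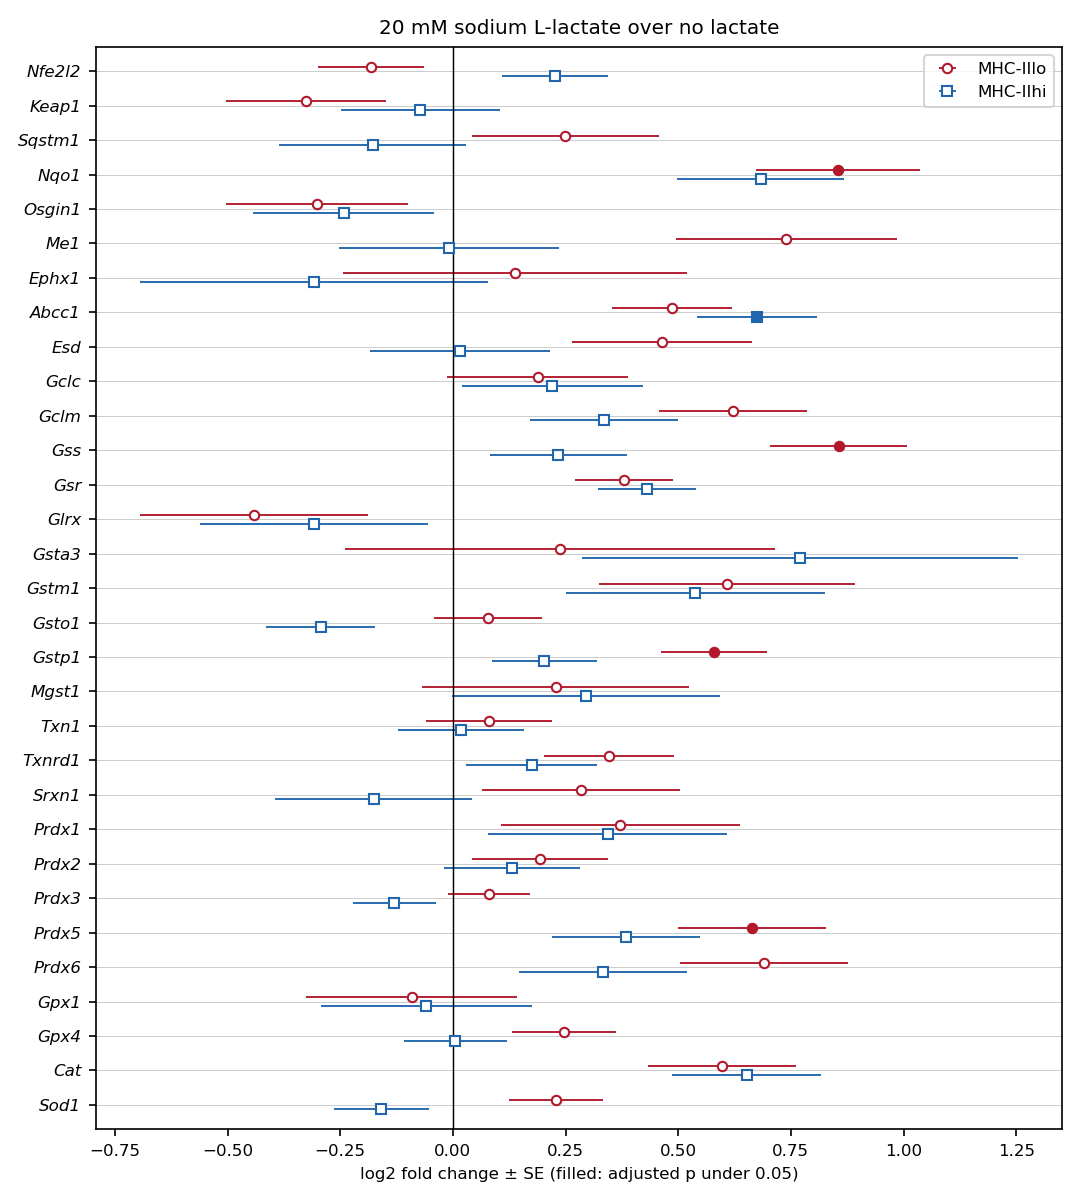
Log2 fold change with its SE of lactate over no lactate for each member, MHC-IIlo above MHC-IIhi in each row, filled where edgeR's adjusted p is under 0.05. Gss, Nqo1, Prdx5 and Gstp1 are filled for MHC-IIlo cells, between 0.58 and 0.86, and Abcc1 for MHC-IIhi cells, at 0.67.

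The plot of lactate effects shows both subsets in each row. Whether lactate acted differently on them was tested as the MHC-IIlo minus the MHC-IIhi effect, and edgeR called none of 31 members and none of 13593 genes (0%). At an unadjusted p under 0.05 there were 6 members and 1018 genes, and DESeq2 and limma's voom with quality weights called no member either. The largest member estimates of the difference were for Me1 (0.75 ± 0.35, edgeR adjusted p = 0.661) and Gss (0.62 ± 0.21, edgeR adjusted p = 0.630). Among the cell type markers 2 were called with lactate, neither of them a macrophage marker. The neutrophil collagenase Mmp8 averaged 1781 ± 348 CPM in lactate MHC-IIhi and 761 ± 110.2 CPM in no-lactate MHC-IIhi libraries (1.23 ± 0.26, edgeR adjusted p = 0.0472), and the neutrophil marker sum was 1832 ± 349 CPM in lactate MHC-IIhi and 828 ± 113 CPM in no-lactate MHC-IIhi libraries. The red cell anion exchanger Slc4a1 averaged 2.23 ± 1.26 CPM in lactate MHC-IIlo and 0.377 ± 0.231 CPM in no-lactate MHC-IIlo libraries (2.48 ± 0.53, edgeR adjusted p = 0.02400). Their part in the lactate results was not tested.

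Of the other genes of the pathway 54 were listed, and 50 were tested in both fresh and cultured cells. After culture 11 of the 50 rose and 21 fell in MHC-IIlo cells, against 27.6% of all genes higher and 29.9% lower, and 18 rose and 21 fell in MHC-IIhi cells, against 31.6% higher and 30.4% lower. Their median log2 fold change was -0.10 in MHC-IIlo and -0.08 in MHC-IIhi cells, below that of the 30 members. Both iron storage chains were higher in MHC-IIlo cells after culture. Fth1, the ferritin heavy chain, averaged 21389 ± 1397 CPM in no-lactate MHC-IIlo libraries and 5279 ± 955 CPM in fresh MHC-IIlo libraries (2.06 ± 0.19, edgeR adjusted p = 9.12e-09), and 22997 ± 1992 CPM in no-lactate MHC-IIhi libraries and 4016 ± 831 CPM in fresh MHC-IIhi libraries (2.54 ± 0.20, edgeR adjusted p = 3.71e-10). The light chain Ftl1 rose by 1.59 ± 0.18, edgeR adjusted p = 1.39e-07, in MHC-IIlo cells. On log2(FPKM + 1) values the Fth1 changes were 0.96 in both subsets and that of Ftl1 was 0.49 with no call (limma adjusted p = 0.0553). Both Fth1 changes read 0.959806758 although they come from separate libraries, so they are not taken to measure its rise. Whether the FPKM normalisation set them was not tested. Gstm2 rose by 3.51 ± 0.33, edgeR adjusted p = 9.45e-09, and 4.67 ± 0.37, edgeR adjusted p = 5.16e-10, in MHC-IIlo and MHC-IIhi cells. Sod3, the extracellular superoxide dismutase, is not counted among the 50 because the filter kept it only through the cultured libraries, and averaged 1.43 ± 0.51 CPM in no-lactate MHC-IIhi and 0.169 ± 0.089 CPM in fresh MHC-IIhi libraries. Among those lower were Ggt5, which cleaves extracellular glutathione conjugates (-3.08 ± 0.25 and -3.58 ± 0.25), Gpx3 (-2.42 ± 0.41) and the small MAF gene Maff (-2.37 ± 0.26) in MHC-IIlo cells, and Park7 (-1.51 ± 0.079) and the pentose phosphate gene Tkt (-1.51 ± 0.095) in MHC-IIhi cells. On log2(FPKM + 1) values Gstm2 rose by 2.31 in MHC-IIlo and 2.53 in MHC-IIhi cells, Ggt5 differed by -1.03 in MHC-IIlo and -1.46 in MHC-IIhi cells, and Gpx3 by -0.88 in MHC-IIlo cells.

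Between the subsets, Slc7a11, the cystine carrier that feeds glutathione synthesis, was lower in MHC-IIlo cells in all 3 states. It averaged 123 ± 96.5 CPM in lactate MHC-IIlo libraries and 505 ± 192 CPM in lactate MHC-IIhi libraries (-2.15 ± 0.32, edgeR adjusted p = 4.31e-05), 39.5 ± 6.12 CPM in no-lactate MHC-IIlo libraries and 364 ± 131 CPM in no-lactate MHC-IIhi libraries (-3.17 ± 0.33, edgeR adjusted p = 6.05e-07), and 44.9 ± 10.7 CPM in fresh MHC-IIlo libraries and 120.01 ± 21.5 CPM in fresh MHC-IIhi libraries (-1.40 ± 0.19, edgeR adjusted p = 0.000123). In MHC-IIlo cells Slc7a11 was higher with lactate by 1.49 ± 0.31, edgeR adjusted p = 0.0235, and Gsta4 by 1.26 ± 0.28, edgeR adjusted p = 0.0293, the 2 other pathway genes called with lactate. The call for Slc7a11 was lost without lactate MHC-IIlo 4 or no-lactate MHC-IIlo 1, 3, 5 or 6 (edgeR adjusted p = 0.0518 to 0.0662) and on log2(FPKM + 1) values (1.25, limma adjusted p = 0.0604), and that for Gsta4 without lactate MHC-IIlo 3, 4, 5 or 6 or no-lactate MHC-IIlo 1, 3, 5 or 6 (0.0545 to 0.0811). The culture effect on Slc7a11 differed between the subsets by -1.77 ± 0.30, edgeR adjusted p = 0.000399, as did those on Gstt1 (-1.75 ± 0.29), Msrb1 (1.08 ± 0.18), Gstm4 (0.84 ± 0.21) and Mgst3 (0.84 ± 0.18). With all 30 libraries in the fit Mgst3 was not called (0.84, edgeR adjusted p = 0.0792). In all, 7 of the 50 were higher and 6 lower for that difference, against 6.03% of all genes higher and 8.27% lower.

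In fresh MHC-IIlo cells 10 of 50 other pathway genes tested were higher and 13 lower than in MHC-IIhi cells, 46% called against 29.2% of all genes. Hmox1, haem oxygenase 1, averaged 1554 ± 618 CPM in fresh MHC-IIlo libraries and 676 ± 289.8 CPM in fresh MHC-IIhi libraries (1.21 ± 0.34, edgeR adjusted p = 0.0179) and was lost without fresh MHC-IIlo 5 (0.0506), Gpx3 was higher by 1.08 ± 0.27 and Akr1b8 by 0.97 ± 0.092, while Tkt (-0.86 ± 0.074) and Ggt5 (-0.83 ± 0.17) were lower. Without lactate 4 of 52 were higher and 8 lower, and the 23.1% called was near the 20.8% of all genes. Sod3 (-3.28) is counted among the 8 lower, though it was too low to test in fresh cells. Whether the filter on low counts kept it only through the MHC-IIhi libraries was not checked. Among the others called were Cbr1 (0.59), Gstm4 (0.58) and Gstz1 (0.45), and Gstt1 (-2.38). Of these, Cbr1 was lost without no-lactate MHC-IIlo 3 or 6 or no-lactate MHC-IIhi 5 or 6 (edgeR adjusted p = 0.0521 to 0.0768), Gstm4 without no-lactate MHC-IIlo 1 or 3 or no-lactate MHC-IIhi 4, 5 or 6 (0.0650 to 0.09999) and Gstz1 without no-lactate MHC-IIlo 1, 4 or 6 or no-lactate MHC-IIhi 4, 5 or 6 (0.0543 to 0.110). With lactate 10 of 52 were higher and 6 lower, 30.8% called against 22.4% of all genes. Sod3 (-2.15) is counted here with the same limit. Among the others called were Cbr3 (1.14), Gstm5 (0.97) and Cbr1 (0.78), and Gstt3 (-1.87). The call for Gstm5 was lost without lactate MHC-IIlo 1, 3, 4 or 6 or lactate MHC-IIhi 3, 4, 5 or 6 (edgeR adjusted p = 0.0560 to 0.0932). On log2(FPKM + 1) values Gpx3 differed by 0.63 and Ggt5 by -0.43 in fresh cells, and with lactate Gstm5 differed by 0.57 and Gstt3 by -1.12.

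Some members share sequence or position with other genes, and whether strand was used in counting is not given in the sources used here. Gsto1 lies opposite Cfap43, which had 114% as many reads, Gss opposite Acss2 (29.6%) and Prdx2 opposite Rnaseh2a (14.9%), so their values are uncertain. Cfap43 averaged 36.4 CPM in no-lactate MHC-IIlo and 91.5 CPM in fresh MHC-IIlo libraries. In MHC-IIhi cells it averaged 72.1 CPM in no-lactate and 107.7 CPM in fresh libraries. Prdx5 overlaps Trmt112 and Keap1 overlaps Gm16754, each with 1.78% as many reads. The Gstm1 paralogs Gstm2 and Gstm4 had 13.9% and 12.6% of its reads and Gstp2 had 1.19% of those of Gstp1, and reads may have been split between them.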

How the data were processed

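RNA from 30 macrophage samples was sequenced on a NextSeq, and the authors deposited a table of raw read counts per gene and a table of FPKM values for 13778 genes. Per the submitters' processing notes, Trimmomatic, STAR and featureCounts were used with GRCm38, with versions not given in the sources used here. In the deposited FPKM values, FPKM times gene length had the same median in all 30 columns, and how the authors normalised them is not given in the sources used here. Cultured columns name a group and a number but not which labelled sample they are, so they were used as replicates of their group.

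Members were tested on the deposited counts with edgeR 4.0.16 in R 4.3.3 (filterByExpr, TMM factors, quasi-likelihood F test on group means, Benjamini-Hochberg adjustment over all genes tested, threshold 0.05). There were 3 fits: fresh libraries, cultured libraries, and fresh with no-lactate libraries. CPM are counts scaled to each library's total. The SE of a log2 fold change was taken from its F statistic. Alternatives were DESeq2 1.42.0, limma 3.58.1 (voom with quality weights, and log2 FPKM with pseudocounts of 1 and 0.1), RLE factors, no filter, all 30 libraries, a replicate block, each library left out and, chosen after seeing the data, library totals without TMM and a block over fresh and no-lactate libraries. The tests were tried on simulated data. Total counts per library were 16913250 to 31481548, and the floor used for Gsta3 covers counting error only.

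The members, the other pathway genes and the markers were chosen with earlier results of these data known. Values in every library are given for Nfe2l2, Keap1, Nqo1, Gclc and Gclm, and in each comparison for the up to 5 called members with the largest rise and the 5 with the largest fall. The remaining members are given by means or fold changes so that each is accounted for, and their means were chosen after their values were seen. Other pathway genes are named for the up to 3 largest called changes in each direction.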

Additional observations from a re-analysis of the deposited data

Results flagged for a closer look

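In a group of 5 libraries a value was marked where its gap to the nearest other library exceeded 0.71 of the group's range (Dixon's test), which chance gives in about 1 of 20 groups. Of 186 member groups 16 were marked. Lactate MHC-IIlo 5 accounted for 5 of them, with 72.7 CPM of Gclc, 159.7 CPM of Gsr, 105 CPM of Gsto1, 55.6 CPM of Prdx3 and 109 CPM of Sod1. Each of these 5 values was above those of the other 4 lactate MHC-IIlo libraries.

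No-lactate MHC-IIhi 7 had the lowest Glrx of its group, 376 CPM, and a Gstp1 value of 34.7 CPM. The other marked values were 568 CPM of Abcc1 in lactate MHC-IIhi 6, 18.4 CPM of Gstp1 in no-lactate MHC-IIlo 4, 993 CPM of Gpx1 in no-lactate MHC-IIlo 3, 825 CPM of Prdx5 in no-lactate MHC-IIhi 3, 0.378 CPM of Ephx1 in no-lactate MHC-IIhi 5, 110.0 CPM of Glrx in fresh MHC-IIlo 3, 718 CPM of Prdx1 in fresh MHC-IIlo 5, 1.23 CPM of Nqo1 in fresh MHC-IIhi 1 and 132 CPM of Gsr in fresh MHC-IIhi 3.

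The effect of culture differed between MHC-IIlo and MHC-IIhi cells by the interaction test for 6 members. On the log2 scale the MHC-IIlo minus the MHC-IIhi effect was 0.50 for Nfe2l2, -1.27 for Glrx, -0.99 for Abcc1, -0.71 for Prdx5, -1.05 for Prdx6 and -0.76 for Gclm. The edgeR adjusted p ran between 0.000552 for Abcc1 and 0.0327 for Nfe2l2.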

How the results depend on the processing

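No called change of a member or named pathway gene turned its direction: of 2643 values of 126 changes under the alternatives 2458 kept their call and 185 lost it, and 97 of the changes kept it throughout. The members called in the fresh subset comparison were 9 to 12 with 1 library left out. That range was 6 to 7 without lactate, 7 to 10 with lactate, 21 to 24 for culture in MHC-IIlo and 24 to 27 in MHC-IIhi cells (Gsta3 included), and 5 to 9 for the culture difference. For lactate it was 1 to 6 in MHC-IIlo and 0 to 1 in MHC-IIhi cells, and 0 for the lactate difference. In place of 4 calls, lactate in MHC-IIlo cells gave 9 with DESeq2, 13 with voom, and 8 with all 30 libraries and on each FPKM scale. In place of 1 call, lactate in MHC-IIhi cells gave 4 with DESeq2, 2 with all 30 libraries and 0 with library totals. The culture difference gave 10 in place of 6 with voom and on log2(FPKM + 1) values. Without the filter on low counts the calls lost were Prdx2 and Gss in fresh cells, Txnrd1, Gstm1, Gstm4 and Gstz1 without lactate, Gstm5 with lactate, Prdx5 for lactate in MHC-IIlo and Sod1 for culture in MHC-IIhi cells (edgeR adjusted p = 0.0501 to 0.118). With RLE factors they were Gss in fresh cells, Gstm1 without lactate and Prdx5 for lactate in MHC-IIlo cells (0.0511 to 0.0532). With library totals they were Sod1 and Gss in fresh cells, Txnrd1 and Gstz1 without lactate, Abcc1 for lactate in MHC-IIhi and Sod1 for culture in MHC-IIhi cells (0.0672 to 0.113). Gpx1 for culture in MHC-IIlo cells was lost with all 30 libraries (0.1001), and Nqo1 between the lactate subsets with voom (limma adjusted p = 0.0930).

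With the replicate number as a block the members called were 19 in place of 12 in fresh cells, and 11 in place of 4 for lactate in MHC-IIlo and 2 in place of 1 in MHC-IIhi cells, while the no-lactate call for Txnrd1 was lost (-0.27, edgeR adjusted p = 0.196). For lactate the block added Esd, Abcc1, Prdx6, Cat, Gclm (edgeR adjusted p = 0.0228), Gsr and Me1 in MHC-IIlo cells. In MHC-IIhi cells it added Cat (edgeR adjusted p = 0.00634). Over all genes the block gave 5004 calls in place of 3737 in fresh cells, and 1111 in place of 202 for lactate in MHC-IIlo and 81 in place of 34 in MHC-IIhi cells. Deviations from group means of same-numbered libraries correlated at 0.0700 to 0.497 in fresh cells, where 4 of 5 correlated best with their own number, and at 0.0539 to 0.383 for lactate and no-lactate MHC-IIlo cells, where 3 of 5 did. For lactate and no-lactate MHC-IIhi cells the range was -0.362 to 0.485, and between the subsets -0.0526 to 0.523 with and -0.0144 to 0.296 without lactate. In these, 2 of 4, 2 of 5 and 3 of 4 correlated best with their own number. Each comparison had a pair at or below 0.1, so by that rule the numbers were not taken to pair samples. The rule does not exclude pairing, and if the numbers do pair samples, the main tests leave it out. A block over fresh and no-lactate libraries was chosen after seeing the data. With Gsta3 included, it gave 23 calls in MHC-IIlo and 24 in MHC-IIhi cells, and 6 for the culture difference. Counted the same way, the fit without this block called 17 rises and 6 falls for MHC-IIlo cells, 20 and 5 for MHC-IIhi cells. With the block, Gstm1 was lost in MHC-IIhi cells (0.52, edgeR adjusted p = 0.0852). Same-numbered fresh and no-lactate libraries correlated at -0.212 to 0.0465 in MHC-IIlo and -0.213 to 0.130 in MHC-IIhi cells. Ephx1 in culture and Nqo1, Me1 and Gsta3 in fresh cells rest on few counts. No scaling moved the median of all genes by more than 0.1 on the log2 scale.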
